A study of Mus musculus with 4 samples.

Results

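H3K4me3 HiChIP in bone marrow-derived macrophages (BMDMs) gave 237102 listed interactions between 5000-bp bins of the mouse genome, and 1669 of them (0.704%) had an observed count at least 10 times the expected count together with an observed count of at least 20. These 1669 strongest interactions relative to expectation are described here. They were grouped by the gene whose protein-coding transcription start site (TSS) lay in a bin, using the basic GENCODE M21 annotation, and those without such a gene are reported separately. The list draws on these conditions: C57BL/6J BMDMs given IL-4 at 20 ng/mL over 24 h (2 samples) and basal BMDMs that received no IL-4 (2 samples), all differentiated for 7 days from bone marrow with M-CSF. The authors merged all 4 samples before calling interactions, so each value below is a single pooled value with no replicate error, no depth per sample and no comparison of IL-4 with basal cells. The labelled biological replicates therefore give no spread here. Intervals below are 95% Wilson intervals, which cover counting error only, and interactions that share a bin are not independent.

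H3K4me3 is a histone mark found at active promoters. HiChIP ligates pieces of chromatin that lie close together in the nucleus and then enriches the ligated pieces for a mark, so an H3K4me3 list is built around promoters and the regions they contact. Enhancers can lie far from the gene they act on, and contacts of this kind are one way to link them. Many loops in mammalian genomes have the insulator protein CTCF at both ends, usually with the motifs facing each other, because cohesin extrudes DNA until it meets CTCF in that orientation. All listed contacts with macrophage marker promoters were counted as a check of the cell type. All 6 macrophage markers (Spi1, Csf1r, Adgre1, Itgam, Cd14 and Mertk) had listed interactions, between 1 at Itgam and 42 at Mertk, and none had an interaction over the threshold. Of the markers of other cell types, 2 of 4 T cell, 2 of 4 B cell and 3 of 4 neutrophil genes had listed interactions. So had 2 of 3 stromal or endothelial genes. Lck led with 32, followed by the endothelial gene Pecam1 with 26. The promoter of the stromal gene Pdgfra had 4 listed interactions, 1 of them over the threshold, and the part of other cells in that value was not tested.

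Sequences from the joined bins show the direction of CTCF motifs, a feature that the threshold did not use and in which these interactions differed from the rest of the list. The matches below come from 5 pairs of bins whose motifs face each other. Each is read 5′ to 3′ on the strand given (mm10), with the 15-letter CTCF consensus match in capitals. In every pair the left site is on the forward strand and the right site on the reverse strand.
chr10:94991623-94991677 (+): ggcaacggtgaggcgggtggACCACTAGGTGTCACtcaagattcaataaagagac
chr10:95476140-95476194 (-): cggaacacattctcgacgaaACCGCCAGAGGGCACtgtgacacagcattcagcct
chr17:45731331-45731385 (+): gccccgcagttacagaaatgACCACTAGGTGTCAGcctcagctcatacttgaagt
chr17:46032868-46032922 (-): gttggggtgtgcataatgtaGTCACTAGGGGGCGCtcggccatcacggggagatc
chr15:5236700-5236754 (+): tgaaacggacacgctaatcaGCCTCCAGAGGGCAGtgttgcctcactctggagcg
chr15:5915439-5915493 (-): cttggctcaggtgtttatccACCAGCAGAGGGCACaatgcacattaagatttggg
chr16:15886635-15886689 (+): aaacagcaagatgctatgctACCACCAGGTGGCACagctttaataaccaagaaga
chr16:16104440-16104494 (-): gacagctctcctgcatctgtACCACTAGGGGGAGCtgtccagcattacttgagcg
chr5:64382605-64382659 (+): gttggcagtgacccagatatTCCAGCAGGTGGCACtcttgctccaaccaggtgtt
chr5:64813646-64813700 (-): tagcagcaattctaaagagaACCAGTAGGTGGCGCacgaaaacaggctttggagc
The first pair joined intergenic bins 45.2 kb from Plxnc1 and 21.9 kb from Mrpl42, with 62 reads observed against 2.81 expected (ratio 22.1). The second lay in the bins of 1600014C23Rik and Vegfa, the third in an intron of Ptger4 and an intergenic bin, the fourth in the TSS bin of Cebpd and an intron of Spidr, and the fifth in an intergenic bin and an intron of Klf3.

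By construction these interactions sat at the top of the list. Their ratio of observed to expected count ran from 10.0 to 46.4 with a median of 11.6 (quartiles 10.7 and 13.4), and the median over all listed interactions was 3.11. The ratio reached 15 in 231 of them, 20 in 66, 25 in 24 and 30 in 10. Observed counts ran from 20 to 512 with a median of 53, beside a median of 27 over the whole list. Their expected counts were low, with a median of 4.30 beside 8.74 over the whole list, so the high ratios came with counts that were moderate in size. These values chose the interactions and are given as a description. Just inside the threshold were an intergenic bin joined to Ugp2 (10.0007) and a bin within Fyco1 (10.0009). Just outside it were Jun with a bin in Fggy (9.998) and Tab2 with an intergenic bin (9.993). A further 179 listed interactions reached a ratio of 10 with fewer than 20 reads.

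The joined bins lay far apart. The distance ran from 25 to 1000 kb with a median of 435 kb (quartiles 265 and 635 kb), beside a median of 185 kb over the whole list. Of the listed interactions at 10 to 100 kb, 0.0295% (20 interactions) were over the threshold, and the share was 0.305% at 100 to 200 kb, 0.891% at 200 to 300 kb and 2.24% at 800 to 900 kb. Distance enters the expected count, which falls with it, so this gradient is part of how the interactions were chosen.

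**Figure D1:**
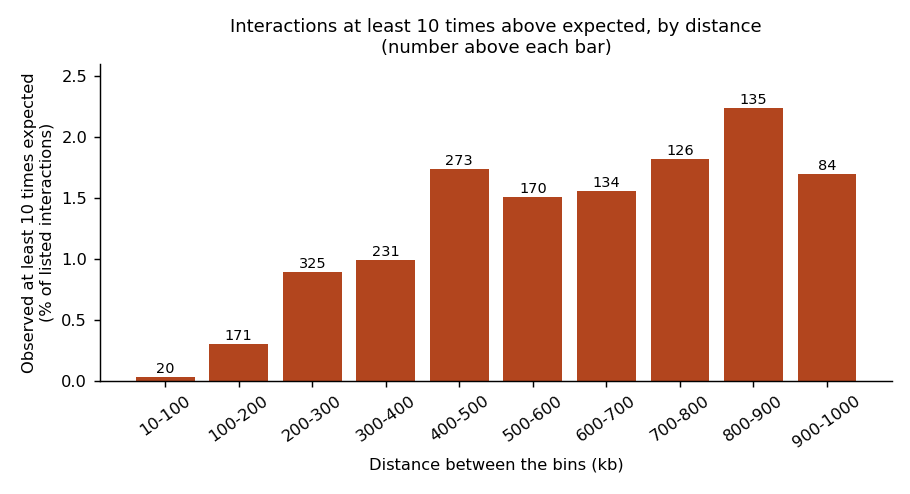
Share of listed interactions over the threshold (y axis, % of listed interactions) in each 100-kb band of distance between the bins (x axis, kb), with the number of interactions above each bar. The share was lowest below 100 kb, at 0.0295%, and highest at 800 to 900 kb, at 2.24%.

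Neighbouring bins often carried the same contact. The 1669 interactions fell into 792 of the authors' clusters and, when interactions in adjacent bins were joined, into 1210 patches, of which 990 were single bin pairs. In 31 patches with 5 or more interactions lay 217 of them. The largest patches, with 13 interactions each, joined Jun to Fggy and Plk2 to an intergenic stretch. Of 95 patches with at least 3 interactions, 53 held a single bin on one side. The interactions used 2351 bins, of which 1972 took part in 1 interaction and 68 in 5 or more.

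A TSS lay in 1 of the joined bins in 967 interactions (57.9%), in both in 32 (1.92%) and in neither in 670 (40.1%). Of the 20696 protein-coding genes, 506 (2.44%) had at least 1 of these interactions, and they were 3.87% of the 13081 genes with any listed interaction. Most of the 506 had few. There were 345 genes with 1, 115 with 2 to 4, 34 with 5 to 9 and 12 with 10 or more. Because 96 of the genes shared a promoter bin with another, some interactions counted for more than 1 gene. The 10 leading genes held 234 interactions, 14.0% of all and 23.4% of the 999 with a TSS.

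The leading 6 promoter bins stood at the head and held 192 interactions (11.5%). They belong to Bcl6 together with Gm37419, Jun, Maf, Plk2, Rnd3 and Cited2. Some encode transcription factors: BCL6 is a zinc-finger repressor, JUN a subunit of AP-1, and MAF a bZIP factor of macrophages. PLK2 is a polo-like kinase, RND3 an atypical small GTPase that opposes actomyosin contraction, and CITED2 a transcriptional cofactor that binds CBP and p300.

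The promoter bin of Bcl6 (chr16:23985001-23990000) had 45 interactions over the threshold among 171 listed. All lay upstream of the gene at 400 to 1000 kb, with ratios from 10.1 to 28.9 (median 12.6) and counts from 32 to 175. Of the partner bins, 44 were in Lpp, a large gene for a focal adhesion protein, and the strongest lay 635 kb away with 175 reads against 6.06 expected. The TSS of Gm37419 lies in the same bin, so these contacts cannot be assigned to either gene alone. All 171 listed interactions of this bin lay on that side, so the side was not particular to those over the threshold. The same holds for all 155 listed interactions of Plk2 and for 181 of 189 at Jun and 171 of 177 at Cited2. It holds less at Maf, with 31 listed upstream and 173 downstream, and at Rnd3, with 27 and 146. None of those upstream at Maf or Rnd3 was over the threshold. The adjacent bin within Bcl6 (chr16:23980001-23985000) had another 10 interactions, with ratios of 10.3 to 26.0. That bin has no protein-coding TSS in the annotation used, but it holds a second RefSeq promoter of Bcl6 (chr16:23981234-23981533).

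Jun (chr4:95050001-95055000) had 42 of 189 listed interactions over the threshold. All were upstream at 160 to 880 kb, with ratios from 10.3 to 38.6 (median 14.8) and counts from 40 to 213. In 31 the partner lay in Fggy, which encodes a carbohydrate kinase. The strongest by ratio joined Jun to an intron of Fggy at 820 kb with 102 reads against 2.64 expected, and the next, at 870 kb, had 148 reads against 3.91 expected (ratio 37.9). The high ratios were thus crowded near the far end of the range. Mysm1, a histone H2A deubiquitinase gene on the same side of Fggy, had 10 interactions, all with Fggy, at 750 to 945 kb and with ratios up to 24.2.

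Maf (chr8:115705001-115710000) had 37 of 204 listed interactions over the threshold, all downstream at 205 to 935 kb, with ratios from 10.0 to 31.8. Counts ran from 48 to 416, the highest of the 6 promoters. The partner was in Wwox, an oxidoreductase gene, in 25 and intergenic in 12. Its highest ratio was with a Wwox intron at 610 kb (243 reads against 7.64 expected), and its highest count with an intergenic bin at 285 kb (416 against 13.6, ratio 30.6). The Wwox bin held a CTCF match on the forward strand, pointing toward Maf, while the Maf bin held none.
chr8:115095712-115095766 (+): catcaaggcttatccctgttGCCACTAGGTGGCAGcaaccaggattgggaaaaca

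Plk2 (chr13:110395001-110400000) had 29 of 155 listed interactions over the threshold, all downstream at 320 to 920 kb. Ratios reached 32.8 at 840 kb (172 reads against 5.25 expected), and a second group of bins near 575 kb reached 31.1 (265 against 8.52). Its partners were intergenic in 28 and the promoter of Actbl2 in 1. Rnd3 had 21 of 173, all downstream at 290 to 855 kb, with 20 intergenic partners and a highest ratio of 27.8 (191 reads against 6.86 expected). Cited2 had 18 of 177, all upstream at 200 to 905 kb and all intergenic, with a highest ratio of 21.4 (185 reads against 8.64 expected). The partners of these 3 promoters thus lay almost wholly outside protein-coding genes, whereas those of Bcl6, Jun and Maf lay mostly in introns.

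**Figure D2:**
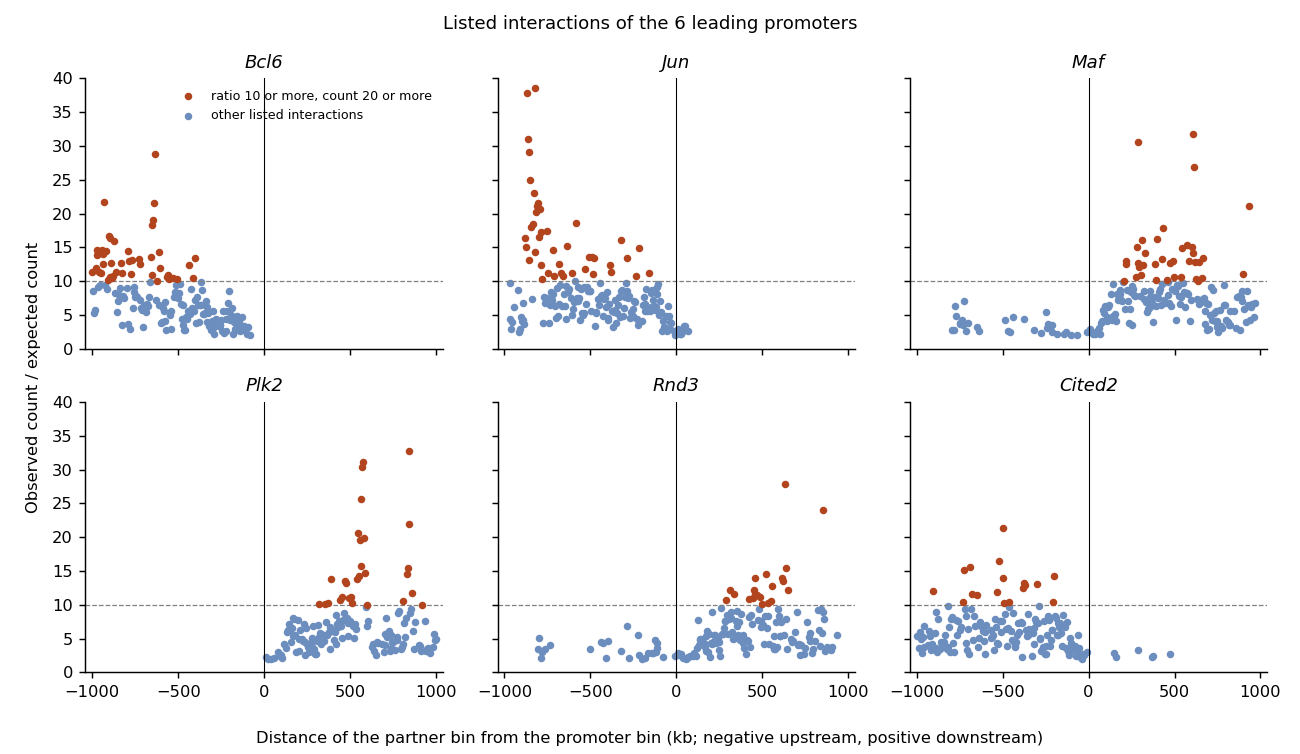
Ratio of observed to expected count (y axis) of every listed interaction of 6 promoter bins against the distance and direction of its partner (x axis, kb, negative upstream). Red points are interactions over the threshold and blue points the other listed ones. At each promoter the red points lie on a single side, between 160 kb (Jun) and 1000 kb (Bcl6) from the TSS bin.

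The 6 promoter bins were rich in CpG dinucleotides, with 151 at Plk2 to 289 at Jun per bin, beside a median of 36 over all autosomal bins, and none held a CTCF match. The 250 bases before the RefSeq start of 3 of these genes are shown because TSS bins of these interactions held more CpG than other listed TSS bins (medians 123 and 102). The Plk2 stretch lies mostly in the adjoining bin (chr13:110390001-110395000), whose edge is 0.046 kb from the Plk2 TSS. That adjoining bin had 6 interactions over the threshold, counted as without a TSS. CG is in capitals (GRCm38.p6, 5′ to 3′).
Bcl6 (chr16:23988853-23989102, - strand): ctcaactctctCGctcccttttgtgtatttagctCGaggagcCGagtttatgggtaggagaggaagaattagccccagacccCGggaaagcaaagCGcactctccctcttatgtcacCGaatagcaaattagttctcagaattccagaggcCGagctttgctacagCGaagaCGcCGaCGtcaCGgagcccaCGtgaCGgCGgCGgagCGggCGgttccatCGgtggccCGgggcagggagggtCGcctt
Jun (chr4:95052223-95052472, - strand): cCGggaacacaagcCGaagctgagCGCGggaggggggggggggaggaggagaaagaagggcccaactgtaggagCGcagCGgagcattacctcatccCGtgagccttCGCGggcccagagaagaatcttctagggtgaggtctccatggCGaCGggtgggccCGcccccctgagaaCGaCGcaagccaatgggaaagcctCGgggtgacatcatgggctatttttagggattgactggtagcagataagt
Plk2 (chr13:110394794-110395043, + strand): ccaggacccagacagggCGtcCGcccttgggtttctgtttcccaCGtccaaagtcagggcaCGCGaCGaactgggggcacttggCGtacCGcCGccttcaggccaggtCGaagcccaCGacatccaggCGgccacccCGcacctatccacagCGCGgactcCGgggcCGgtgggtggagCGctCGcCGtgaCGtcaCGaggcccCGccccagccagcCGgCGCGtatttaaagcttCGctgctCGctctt
They hold 21, 15 and 28 CG, and the 300-base promoters of the same starts hold 31, 15 and 31. A second RefSeq promoter of Bcl6, not shown, holds 14 CG in 300 bases. Over 31396 promoters of 300 bases, the median was 7 CG and the upper quartile 21.

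The next genes had fewer of these interactions. They again lay on a single side, as did most listed interactions of the same bins at Zfp703 (149 upstream and 3 downstream) and Atad1 (78 and 21). At Hint1 the listed interactions were less uneven (75 and 50), while all 11 over the threshold lay upstream. Zfp703, a zinc-finger cofactor gene, had 17 interactions of 152 listed, all upstream and intergenic at 165 to 610 kb, with ratios up to 22.3. Atad1, a AAA ATPase of the mitochondrial outer membrane, had 14 of 99, all upstream in Rnls at 445 to 665 kb, with ratios up to 25.3. The partners of Zfp703 were thus intergenic and those of Atad1 all in a single gene body. Hint1, a nucleotide hydrolase gene, had 11 of 125, 9 in Rapgef6, with lower ratios of up to 14.6.

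Arl4c (an ARF-like GTPase), Irf2bp2 (a corepressor of IRF2), Rbpj (the DNA-binding effector of Notch) and Zfp36l1 (an mRNA decay factor) had 9 each. Arl4c reached 344 reads against 19.9 expected at 140 kb (ratio 17.3). Irf2bp2 had intergenic partners at 160 to 330 kb with ratios up to 14.7. Rbpj had intergenic partners at 190 to 240 kb with ratios up to 18.8. By ratio, these 3 promoters therefore had their strongest partners closer by than the 6 at the head. By count that did not hold. Among interactions over the threshold, Jun had its most reads (213) at 160 kb and Rbpj (269) at 215 kb. All 9 partners of Zfp36l1 lay in Rad51b, a recombination gene, at 455 to 790 kb with ratios up to 15.96.

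A set of 8 interactions each belonged to Calcrl (a receptor subunit for adrenomedullin), Tsc22d1 (a TGF-beta-induced regulator) and to the shared bins of Babam2 and Rbks, Galnt4 and Poc1b, and Ttc19 and Zswim7. The highest ratio was 15.1 at Calcrl, 21.7 at Tsc22d1, 15.98 at Babam2 and Rbks, 18.1 at Galnt4 and Poc1b, and 19.7 at Ttc19 and Zswim7. A set of 7 belonged to Vegfa, the angiogenic growth factor, with ratios from 10.8 to 21.6 and counts from 123 to 312 in a single patch 275 to 305 kb downstream. Grk5, a kinase of G protein-coupled receptors, also had 7, within 190 to 220 kb, and reached 28.9 (326 reads against 11.3 expected). Basp1, Brix1 with Rad1, Fastkd2 with Mdh1b, and Id2 completed the genes with 7. Of the 46 genes with 5 or more, 40 had all of them on one side. The listed interactions of these genes were themselves uneven, with a median of 86.6% on the larger side over the 46, and in 19 of the 40 at least 90% of all listed interactions lay on one side. Counted once for each gene, partners lay upstream in 600 cases and downstream in 566. Genes of opposite direction in one bin place the same interaction on both sides. At Bcl6 and Gm37419 the same 45 count as upstream and as downstream, so no balance is read from these numbers.

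**Figure D3:**
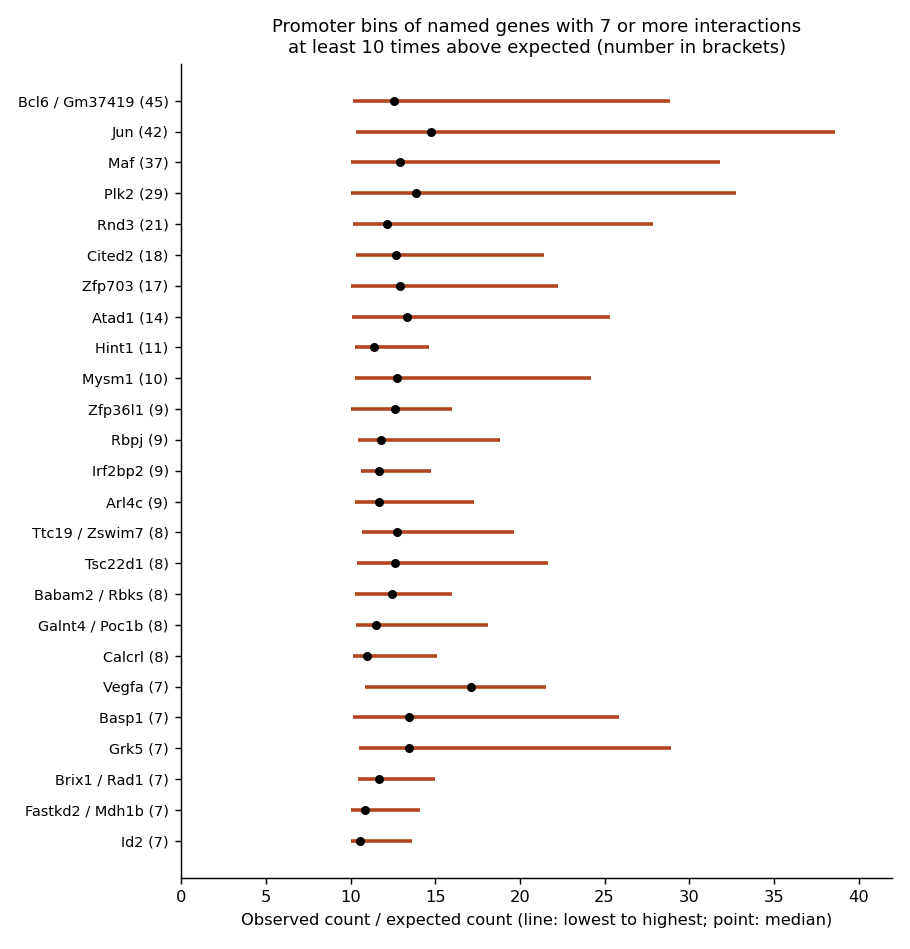
Ratio of observed to expected count (x axis) of the interactions over the threshold at promoter bins of genes with 7 or more that are named in the text, with the number in brackets. Lines run from the lowest to the highest ratio and points are medians. The medians lie between 10.5 (Id2) and 17.1 (Vegfa), while the highest ratio reaches 38.6 at Jun.

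Partner bins clustered in the bodies of a few large neighbours whose own promoters had none of these interactions. Lpp held 56 interaction ends in 47 bins, Fggy 43 in 34, Wwox 26 in 26, Rnls 23 in 15 and Rad51b 20 in 12. Their own promoters had 85, 21, 17, 2 and 67 listed interactions in the same order, and 0 over the threshold. These genes span 255 kb (Rnls) to 913 kb (Wwox), and a longer gene offers more bins.

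The highest ratio in the list joined the TSS bins of C130026I21Rik and Sp110 on chromosome 1, 325 kb apart, with 77 reads against 1.66 expected (ratio 46.4). Sp110 is an interferon-inducible nuclear body gene. The bins share 2502 stretches of 31 bases, and the longest identical stretch, of 501 bases, lies in inverted orientation at chr1:85273296-85273796 and chr1:85597410-85597910. Its first 90 bases, shown because reads from identical copies cannot be placed in one copy or the other, read as follows.
chr1:85273296-85273385 (+): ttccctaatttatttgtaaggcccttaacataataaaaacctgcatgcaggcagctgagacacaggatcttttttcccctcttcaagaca
Only 3 of the 1669 interactions (0.180%) joined bins sharing at least 100 such stretches, beside 0.0845% of the other listed interactions. The others were a neighbouring bin with Sp110 (ratio 10.4) and 2 intergenic bins of chromosome 17, 55 kb apart (ratio 21.2). The effect of shared sequence on these 3 values was not tested.

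Among the 32 interactions between promoters, Vegfa with 1600014C23Rik had a ratio of 21.6 (287 reads against 13.3 expected, 300 kb). Llph with Msrb3 had 14.99 (80 reads, 645 kb) and Gm13691 with Calcrl 13.5 (20 reads, 435 kb). Gdf3 with the C-type lectin gene Clec4a3 had 12.9 on 24 reads, BC067074 with the endocytic sorting nexin Snx18 had 12.3 on 133, and Wnk1, a kinase of ion transport, with Ninj2 had 12.2 on 161. Rapgef6 with Hint1 (11.97), Postn with Supt20 (11.9) and Zfp78 with Clcn4 (11.9) had lower ratios. The counts behind these ratios thus differed by more than 10 times, from 20 to 287. Promoter pairs made up 1.92% (95% interval 1.36 to 2.69%) of these interactions, beside 4.61% of the other listed ones, 5.09% after weighting those to the same distances and 9.77% when the weighted ones were limited to at least 20 reads.

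The highest counts came at shorter range. The highest, 512 reads against 32.8 expected (ratio 15.6), joined a bin beside Gadd45b, a stress-response gene, to an intron of Gng7, 65 kb apart. Pcbp1, an RNA-binding protein gene, had 456 with an intergenic bin at 50 kb (ratio 11.4). Meis1, a homeobox factor of blood progenitors, had 446 with a bin in its own body at 140 kb (ratio 11.6). Of the 10 interactions with the most reads, only the one at Maf (416 reads, 285 kb) was also among the 10 with the highest ratio. The others joined bins at Fam20c (399), Zfc3h1 (387), Zfp691 (363), Pfkfb3 (361), Klf10 (360) and Trio (359).

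The 670 interactions without a protein-coding TSS in a bin made up 40.1% (95% interval 37.8 to 42.5%), beside 37.4% of the other listed interactions and 35.7% after weighting those to the same distances. The weighted share was 17.0% among other interactions with at least 20 reads, the minimum that these had to meet. Against the unweighted others the share was higher on 11 of 19 autosomes, and at 100 to 200 kb it was lower, 26.9% beside 39.3%. They were less often close to a gene start than other listed interactions without a TSS. In 192 (28.7%) a TSS was within 2500 bp of a bin, beside 38.98% of those others, and in 260 (38.8%) within 5000 bp, beside 49.6%. The gap narrowed with the window, with 72.5% beside 79.9% within 25 kb and 89.3% beside 90.2% within 50 kb. The median distance to the nearest was 10.3 kb, beside 5.10 kb. A start of another kind of transcript lay in a bin in 150 (22.4%). For 311 (46.4%) there was neither a protein-coding TSS within 5000 bp nor any other start in a bin. Both bins were intergenic in 201 (30%, 95% interval 26.7 to 33.6%), beside 22.2% of the other listed interactions without a TSS.

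A few bins without a TSS acted as collection points. The bin at chr4:8645001-8650000, 40.9 kb from Chd7, a chromatin remodeller gene, had 14 interactions over the threshold among 133 listed, with ratios of 10.6 to 21.4. The bin at chr4:55510001-55515000, 17.5 kb from Klf4, a zinc-finger factor of monocytes, had 13 of 70 with ratios of 10.3 to 24.2. The bin at chr10:22005001-22010000, 10.3 kb from the kinase gene Sgk1, had 12 of 44 and included the highest ratio of any interaction without a TSS, 30.1 (79 reads against 2.63 expected, 540 kb). Its partner bin held a forward CTCF match pointing toward Sgk1.
chr10:21465498-21465552 (+): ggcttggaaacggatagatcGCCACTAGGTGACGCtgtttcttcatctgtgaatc
Others were a bin in March10 with the start of Gm11638 (8), a bin 1.99 kb from Zfp36l1 with the start of 1300014J16Rik (8), a bin 113 kb from Svil (7), and a bin near Prex1 (7, of which 6 without a TSS). The Chd7 bin held 172 CpG, the Klf4 bin 68 and the Sgk1 bin 56, more than in 99.4%, 87.3% and 77.4% of autosomal bins in that order.

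Further interactions without a TSS had ratios of up to 28.3, above the highest at Rnd3 (27.8) and Cited2 (21.4). These ratios stayed below the highest at Bcl6 (28.9), Maf (31.8), Plk2 (32.8) and Jun (38.6). A bin 73.5 kb from Tacc1 met an exon bin of Fgfr1 and Letm2 with a ratio of 28.3 (112 reads, 300 kb). Bins near Ubash3b and Sorl1 had 26.7 (81 reads, 725 kb), and introns of Depdc1b and Pde4d had 26.1 (58 reads, 865 kb). The bin within Bcl6 met an intron of Lpp with 26.0 (82 reads, 645 kb), which repeats the contact of the neighbouring Bcl6 promoter bin. The bin within Bcl6 has no protein-coding TSS in the annotation used, but it holds a second RefSeq promoter of Bcl6. That Bcl6 bin held 2 forward CTCF matches pointing toward Lpp.
chr16:23983464-23983518 (+): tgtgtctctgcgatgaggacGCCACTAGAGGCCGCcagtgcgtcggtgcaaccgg
chr16:23984342-23984396 (+): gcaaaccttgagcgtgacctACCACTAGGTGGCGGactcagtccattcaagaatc
The next highest lay at Klf4 (24.2), in the Ms4a cluster of membrane receptors (23.7), at Sulf2 and Prex1 (23.5), at Galnt7 and Galntl6 (23.3), near Mbd2 (22.9), and between Svil and Arhgap12 (22.8).

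The ends of these interactions differed from the rest of the list in the genes at and between them, which the threshold did not use directly. For the 967 with a single TSS, the partner was intergenic in 57.1% (95% interval 53.9 to 60.2%), beside 37.4% of other listed interactions with a single TSS and 40.5% after weighting to the same distances. The difference from the unweighted others had this direction on 17 of 19 autosomes. An exon lay in the partner bin in 15.9% (13.8 to 18.4%), beside 38.3% and 35.5% weighted, and the share was higher in these interactions on 0 of 19 autosomes. Intronic partners were 27.0%, beside 24.3% and 24.0% weighted, where the lower end of the interval (24.3%) reached the unweighted value and the share was higher on 7 of 19 autosomes, so no difference is read from them.

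Fewer genes started between the joined bins than the distance would bring elsewhere in the list. No gene started between a promoter and its partner in 399 of 967 (41.3%, 95% interval 38.2 to 44.4%), beside 28.6% of the others and 12.7% at the same distances. At least 5 genes started between them in 12.7% (10.8 to 14.97%), beside 25.8% and 42.4% at the same distances. Against the unweighted others, the first share was higher on 14 of 19 autosomes and the second on 2. Neither share was computed without the leading genes or with 1 bin pair per cluster, and interactions of one promoter often cross the same stretch. Over all 1669, none started between in 26.8%, beside 26.3% (higher on 9 of 19 autosomes) and 11.1% weighted, and at least 10 in 5.99%, beside 9.32% and 19.3% weighted. When the other interactions were limited to those with at least 20 reads, the weighted share with no gene between promoter and partner was 15.6%. Expected counts include enrichment, and also GC content and mappability, which go with gene density. The part of these terms in the differences at and between the bins was not tested.

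**Figure D4:**
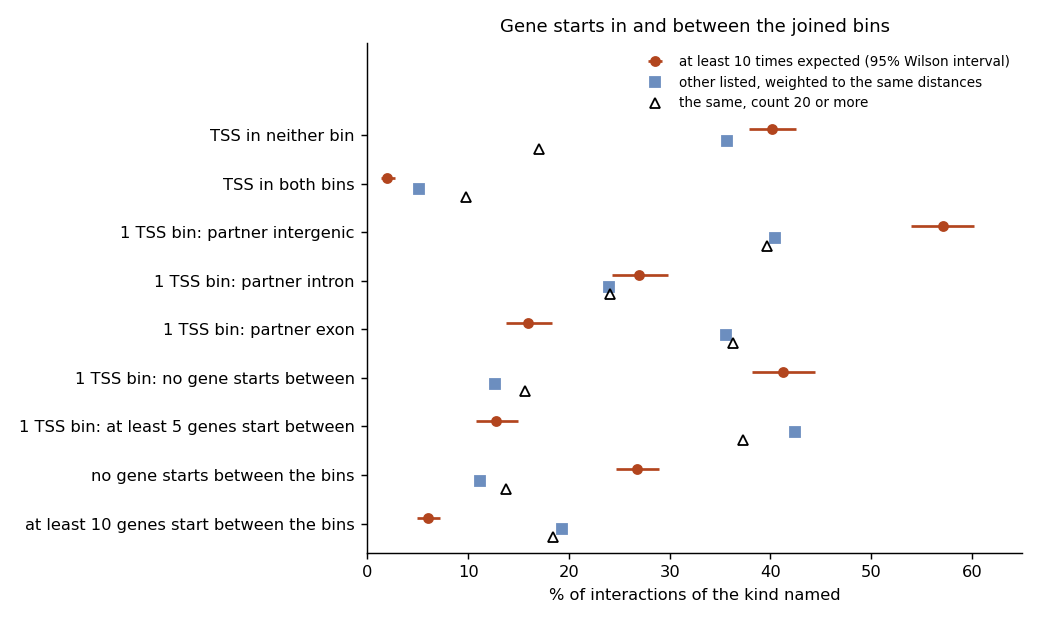
Shares (x axis, %) of interactions with a TSS in neither or both bins, by class of partner, and by the number of genes that start between the bins (rows). Red points are the interactions over the threshold with 95% Wilson intervals, blue squares the other listed interactions weighted to the same distances, and open triangles those of them with at least 20 reads. At least 5 genes start between promoter and partner in 12.7%, beside 42.4% (squares) and 37.2% (triangles).

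CTCF motif matches were more frequent in the bins of these interactions than in other listed bins. Of bins without a TSS, 19.1% (360 of 1882, 95% interval 17.4 to 20.97%) held a match, beside 10.7% of other listed bins without a TSS and 6.60% of all autosomal bins. Of TSS bins, 19.9% (92 of 462, 16.5 to 23.8%) held one, beside 13.5% of other listed TSS bins. A match lay in at least 1 bin in 34.7% of these interactions and 25.6% of the others at the same distances. It lay in both in 76 (4.55%, 3.65 to 5.66%), beside 2.05%. Most of these interactions therefore had no match at either end under this definition. With only the shorter core of the consensus, and no mismatch, TSS bins were nearly alike, at 5.41% beside 4.95% of other listed TSS bins. Bins without a TSS still differed, at 8.87% beside 4.15%. The higher share in TSS bins thus depended on the longer match with its mismatch allowed.

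Where both bins held matches in a single orientation (72 interactions, 135 bins, 18 chromosomes), the motifs faced each other in 52 (72.2%, 95% interval 61.0 to 81.2%), beside 38.7% of the other listed interactions at the same distances and 40.1% of those with at least 20 reads. They pointed the same way in 17 (23.6%), beside 45.6%, and away from each other in 3 (4.17%), beside 15.7%. The 72 lay in 68 patches, so few were repeats of one contact, and 40 had a TSS in a bin. Where only 1 bin held a match, it pointed toward the other bin in 397 of 485 (81.9%, 78.2 to 85.0%), beside 62.6% at the same distances and 62.7% with at least 20 reads, a count that was added after the values for pairs had been seen. At ends without a TSS the share pointing inward was 83.5% (399 of 478), and at ends with one 79.4% (123 of 155), beside 63.8% and 60.1%. Among the 66 interactions with a ratio of at least 20, only 4 had an oriented pair, 3 of them facing each other. The promoter bins of Jun, Bcl6 and Plk2 held no match, but the bins adjoining those of Bcl6 and Plk2 held 2 and 1 forward matches, so a match can lie just outside the bin counted.

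**Figure D5:**
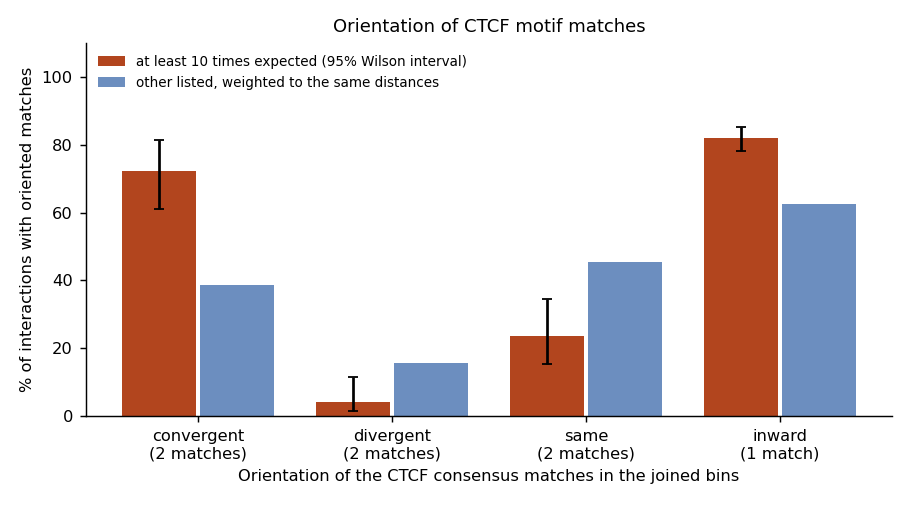
Orientation of CTCF consensus matches (x axis) as a share of interactions with oriented matches (y axis, %). Red bars are the interactions over the threshold (72 with a match in both bins, 485 with a match in 1 bin only) with 95% Wilson intervals, and blue bars the other listed interactions weighted to the same distances. Facing motifs made up 72.2% beside 38.7%, and a lone motif pointed inward in 81.9% beside 62.6%.

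Other sequence properties differed less. Beside the higher CpG number of TSS bins given above, bins without a TSS held 48 and 47. Median GC content was 47.8% and 48.0% in TSS bins and 43.7% and 43.8% in the other bins. Repeats covered a median of 18.02% and 21.1% of TSS bins and 23.4% and 25.8% of the others. The MboI site GATC, on which the assay depends, had a median of 13 per bin in these interactions and 12 in other listed bins of both kinds. Consensus matches of macrophage factors, counted on both strands, were about as frequent in both sets. In bins without a TSS, AP-1 (TGANTCA) was found in 79.5% and 78.8%, PU.1 (AGGAAGT) in 73.9% and 72.8%, C/EBP (TTGCNNAA) in 89.6% and 87.3%, IRF (GAAANNGAAA) in 56.3% and 52.7%, and STAT6 (TTCNNNNGAA) in 76.5% and 75.4%. In TSS bins AP-1 was found in 70.3%, beside 73.5%.

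Gene lists of macrophage biology were uneven. They are read against the 2.44% of all genes with such an interaction and the 3.87% of genes with any listed interaction. The second share is the closer one for lists whose genes nearly all had a listed interaction. Of 24 macrophage transcription factors, 7 had one: Maf with 37, Id2 (an inhibitor of bHLH factors) with 7, Bhlhe40 and Ets2 with 5 each, Runx1 with 4, Cebpb with 3 and Klf4 with 1. Bhlhe40 reached a ratio of 17.3 (245 reads against 14.1 expected), with all 5 partners in Itpr1, and Ets2 reached 13.9 with intergenic partners. Spi1, Zeb2 and Etv6 had 36, 36 and 93 listed interactions and none over the threshold. Of 18 AP-1 and related factors, only Jun (42) and Fosl2 (3) had any, while Atf3 had 40 listed and Junb 13, with none over the threshold. A high number of listed interactions thus did not by itself bring a gene into the set.

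Of 20 IL-4 signalling genes, Bcl6 (45), the PI3-kinase subunit Pik3r1 (3 of 183 listed) and the nuclear receptor Rxra (1 of 24) had interactions over the threshold. Stat6, Il4ra and Jak1 had 26, 26 and 29 listed and none over it. Of 23 IL-4-responsive genes, only Slc7a2, an arginine transporter, had any: 6 of 49 listed, all upstream in Mtmr7 at 250 to 285 kb, with ratios of 10.3 to 15.7 and counts of 72 to 111. Arg1 had 12 listed and Clec10a 18, with none over the threshold. Of 34 feedback regulators of signalling, 6 had some, Plk2 (29), Rnd3 (21), Cited2 (18), Zfp36l1 (9), Spred1 (4) and Rgs2 (3). Of 20 macrophage surface receptors, only Tlr4 had 1. None of 21 inflammatory genes, 24 housekeeping genes, 28 developmental regulators or 20 lymphoid genes had any. The lists with none or 1 such gene are too small for that count to be told from the share over all genes given above. Housekeeping promoters were all in the list, with a median of 11 listed interactions, while the median was 2 for inflammatory genes and 0 for developmental and lymphoid genes. These lists were drawn up with earlier results of these data known, and their counts are a description.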

How the data were processed

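H3K4me3 HiChIP was made from 2 IL-4-treated and 2 basal BMDM samples, grouped by their titles. By the study's methods, the authors digested chromatin with MboI, mapped reads with Bowtie2 to mm10, and ran MAPS at 5000-bp bins on the merge of the 4 libraries, anchored at peaks of H3K4me3 ChIP-seq. It models counts from distance, restriction sites, GC content, mappability and enrichment, so a ratio depends on that model. The deposited count is the number of read pairs per bin pair, and the deposited expected count is the fitted value of the authors' model. The deposited FDR is the authors' adjusted p-value. The deposited −log10 p of each cluster was not used. Distances run from 10 to 1000 kb, over 19 autosomes.

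Here the count was divided by the expected count (Python 3.11.15, pandas 2.3.3). No test was made, since the rule used these values and the list holds no value per sample. Shares of other listed interactions were weighted to the distances of those over the threshold in 10 bands of 100 kb. CTCF matches were 15-letter consensus matches with up to 1 mismatch. Sequence content of bins was taken over bins with at least 4500 known bases, which left out 7 bins of these interactions. Shares of interactions by CTCF match or orientation used all bins. Exact scans were tested on simulated sequences. Of 20 leading genes looked up, 14 matched RefSeq promoters. Genes and interactions named were those with the most or highest values by a fixed rule, and others were picked with their values in view. The interactions and gene lists were chosen with earlier results of these data known. Some genes that the rule selects are not reported here.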

Additional observations from a re-analysis of the deposited data

How the results depend on the processing

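The number of interactions depended on the thresholds. It was 4056 at a ratio of at least 8, 231 at 15 and 885 at a count of at least 50, and it was 1848 at a count of at least 10, 1669 at an FDR under 1e-10 and 1666 without bin pairs of shared sequence. Counting starts of all transcript types gave 799 genes, and starts within 2500 bp gave 691. The share without a TSS was 28.6% with starts within 2500 bp, 24.6% within 5000 bp, 31.2% with all transcript types and 47.3% with 1 bin pair per cluster, and 46.7% without the 10 leading genes. With the first 3 definitions the other listed interactions had 22.8%, 18.9% and 29.7%. The median distance was 505 kb at a ratio of 15, 320 kb at a count of 50 and 410 kb without the 10 leading genes. The share held by the 10 leading genes was 3.28% with 1 bin pair per cluster and 23.6% at a count of 50, so the lead of these genes rests in part on neighbouring bins. The share of facing CTCF pairs was 72.1% to 73.1% in 3 alternatives (majority orientation, 1 bin pair per cluster, 1 per patch) and 75% on 9 of 12 pairs with the 12-letter core. Leaving out the 10 leading genes removed none of the 72 pairs and says nothing about this share. Leaving out the 10 leading genes, the shared sequence filter, the 12-letter CTCF core and 1 bin pair per patch were chosen after seeing the data. The thresholds and definitions themselves make these differences, and no other cause was tested. No paired analysis was possible because the list pools all 4 samples, and leaving out each replicate was not run for the same reason. Depth per sample is unknown.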

Other observations

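The 20 interactions over the threshold below 100 kb were a mixed group. The shortest, 25 kb, joined the promoter of Cul1, a ubiquitin ligase scaffold, to its own intron with 61 reads against 5.17 expected (ratio 11.8). Slc7a8, an amino acid transporter, met an intergenic bin close to the myeloid factor gene Cebpe at 65 kb with 324 reads (ratio 11.9). Sirpa, the receptor for CD47 on phagocytes, met an intron bin at 85 kb with 108 reads (ratio 11.2). A bin of the chemokine receptor gene Xcr1 met an intergenic bin 43.7 kb from Ccr1, with 114 reads (ratio 11.2). Neighbouring bins at 2010315B03Rik and Ppp2r3d on chromosome 9 gave 4 of the 20, with 29 to 329 reads and ratios of 10.6 to 13.8.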
